A study of Homo sapiens with 12 samples.

Results

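Genes of AMP-activated protein kinase (AMPK), the cellular sensor of low energy charge, were followed across 12 RNA-seq libraries of 2 human pancreatic carcinoma lines. The 8 genes were the catalytic alpha subunits PRKAA1 and PRKAA2, the scaffolding beta subunits PRKAB1 and PRKAB2, the nucleotide-binding gamma subunits PRKAG1 and PRKAG2, and the upstream kinases STK11 (LKB1) and CAMKK2. They were found by matching these symbols to the Ensembl identifiers of the deposited count table, which holds 63677 gene rows. All 8 were found, and all 8 were among the 17862 genes that passed the filter on low counts. PRKAA2 passed it through its PANC-1 libraries alone, so its difference between the lines is a description with no test. The set was chosen by a measured value, the lower PRKAG2 counts under RBM3 siRNA, so PRKAG2 is described below with no test.

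AMPK is a heterotrimer of an alpha, a beta and a gamma subunit, each encoded by paralogous genes, and any alpha can assemble with any beta and gamma. Binding of AMP or ADP to the gamma subunit favours the active form, and full activity requires phosphorylation of the alpha activation loop by LKB1 when energy is low or by CaMKK2 when calcium rises. Active AMPK slows fatty acid, sterol and glycogen synthesis, restrains mTORC1, and promotes glucose use and autophagy. Because its activity is set by phosphorylation and nucleotides, transcript levels do not describe the activity of the kinase. They describe the supply of subunit transcripts and not the amount of subunit protein.

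The groups were PANC-1 with RBM3 siRNA (replicates 1, 2 and 3), PANC-1 with control siRNA (replicates 1, 2 and 4), MIA PaCa-2 under RBM3 siRNA (replicates 1, 2 and 5) and MIA PaCa-2 under control siRNA (replicates 1, 2 and 4), 3 libraries each. RBM3 encodes a cold-inducible RNA-binding protein. It was targeted with a mixture of 2 siRNAs at 25 nM for 4.5 h in medium without serum, after 72 h of culture and before overnight recovery. Each line is a single established culture model, the labels name RPMI1640 and DMEM without assigning them to a line, and the material appears as total RNA in 1 label and as cytoplasmic RNA in another. Separate cultures are not stated for the replicates, so a p-value here speaks of the spread among these libraries, which may be technical.

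Libraries held 14217185 to 39652502 counts. Levels are in CPM, read counts per unit of library size after scaling by the trimmed mean of M-values (TMM), and the upper limit for an unseen gene (3 reads) lay between 0.0714 and 0.208 CPM, counting error only. RBM3 itself averaged 125 ± 60.9 CPM with RBM3 siRNA and 476 ± 78.8 CPM with control siRNA in PANC-1, and 47.9 ± 12.6 CPM with RBM3 siRNA and 244 ± 35.3 CPM with control siRNA in MIA PaCa-2 (SD, n = 3 each). Keratins KRT8, KRT18 and KRT19 were abundant in both lines. EPCAM lay between 13.6 and 30.6 CPM in PANC-1 and at 0.0952 CPM or less in MIA PaCa-2. CDH1 lay between 3.59 and 19.2 CPM in PANC-1 and at 0.832 CPM or less in MIA PaCa-2. Of 9 leukocyte, endothelial and fibroblast markers, PTPRC, CD3E, PDGFRA, DCN and LUM held 5 counts or fewer in each group and PECAM1 none. The other markers were detected: the monocyte gene CD14 averaged 1.77 ± 1.07 CPM in PANC-1 with RBM3 siRNA, 1.62 ± 0.513 CPM in PANC-1 with control siRNA, 5.32 ± 1.96 CPM in MIA PaCa-2 under RBM3 siRNA and 10.3 ± 8.78 CPM in MIA PaCa-2 under control siRNA (SD, n = 3 each). The endothelial genes VWF and CDH5 lay at 0.619 CPM or less in every library other than MIA PaCa-2 control replicate 1, where CDH5 stood at 7.57 CPM. PANC-1 RBM3 siRNA replicate 3 stood apart: it held transcripts typical of MIA PaCa-2, with COL1A2 at 441 CPM against 0.548 CPM in the other PANC-1 RBM3 siRNA libraries and 1290 CPM in the MIA PaCa-2 RBM3 siRNA libraries. The PANC-1 gene FOXA2 was at 58.6% of its level in replicates 1 and 2 there. PANC-1 control replicate 1 and RBM3 siRNA replicate 2 also lay away from the other PANC-1 libraries and close to each other on the first principal component of the PANC-1 libraries other than replicate 3 (-46.9 and -53.2, against 28.8 to 38.1). Some values that rest on these libraries are given with and without them. The subunit sums and shares use all libraries, and not every list count is repeated without each of them.

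PRKAA2, the alpha2 catalytic subunit that predominates in muscle, was expressed in PANC-1 and close to the detection limit in MIA PaCa-2. PRKAA2 stood at 43.6, 48.9 and 21.1 CPM in PANC-1 with RBM3 siRNA, against 0.150, 0.327 and 0.117 CPM in MIA PaCa-2 under RBM3 siRNA. Under control siRNA it stood at 33.5, 33.4 and 38.5 CPM in PANC-1, against 0.809, 0.0654 and 0.126 CPM in MIA PaCa-2. The lines did not overlap under either siRNA, as for 31.4% of tested genes under control siRNA and 28.5% under RBM3 siRNA in this direction. The MIA PaCa-2 values rest on 4, 11 and 2 reads with RBM3 siRNA and on 34, 1 and 2 reads with control siRNA, so several of them are at or below the 3-count limit.

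As fitted, the PANC-1 minus MIA PaCa-2 difference of PRKAA2 was 7.44 on the log2 scale under RBM3 siRNA (SE 0.66) and 6.37 under control siRNA (SE 0.62). MIA PaCa-2 control replicate 1 held most of the reads of its group, and without it the control difference was 8.46. The PANC-1 genes FOXA2, MFSD1, SPART, DDX43 and B3GALNT1 had 0 reads in that library, while the endothelial gene CDH5 stood at 7.57 CPM there, against 0 and 0.378 CPM in the other libraries of its group, and the monocyte gene CD14 at 20.5 CPM, against 4.97 and 5.55 CPM; their part in the PRKAA2 reads was not tested. In PANC-1 RBM3 siRNA replicate 3, PRKAA2 was at 45.7% of the mean of replicates 1 and 2, next to the lower FOXA2 there. Leaving that library out gave 7.71 under RBM3 siRNA. In bulk libraries, fewer cells with a transcript and less of it per cell cannot be told apart. With 1 to 34 reads a library in MIA PaCa-2, the size of the fold is poorly fixed.

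Its paralog PRKAA1, the alpha1 subunit found in most tissues, was expressed in all groups, and no comparison of it passed the test. It stood at 92.7, 123 and 89.8 CPM in PANC-1 with RBM3 siRNA, and PANC-1 control libraries had 92.1, 85.0 and 78.8 CPM. In MIA PaCa-2 it stood at 92.1, 78.8 and 61.9 CPM with RBM3 siRNA and at 111, 58.1 and 78.9 CPM with control siRNA. All neighbouring groups in the order of means overlapped, and the line difference was 0.04 (SE 0.23, 95% interval -0.49 to 0.58) under control siRNA and 0.39 (SE 0.23, 95% interval -0.14 to 0.92) under RBM3 siRNA, both on the log2 scale.

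The promoters of the alpha genes are shown because 1 paralog was detected in both lines and the other almost only in PANC-1. Each run below is the RefSeq sequence from 250 bases before to 50 bases after the gene start, 5′ to 3′ on the gene's strand, with CG dinucleotides in capitals. The PRKAA2 window is chr1:56645064-56645363 on the plus strand and the PRKAA1 window is chr5:40798128-40798427 on the minus strand, both in GRCh38.p14.
PRKAA2: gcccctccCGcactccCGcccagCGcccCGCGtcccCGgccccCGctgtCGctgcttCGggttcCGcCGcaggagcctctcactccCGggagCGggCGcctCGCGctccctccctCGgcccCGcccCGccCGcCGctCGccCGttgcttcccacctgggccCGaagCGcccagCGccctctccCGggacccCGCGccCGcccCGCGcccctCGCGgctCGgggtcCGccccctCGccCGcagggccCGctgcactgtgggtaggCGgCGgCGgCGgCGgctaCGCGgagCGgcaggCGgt
PRKAA1: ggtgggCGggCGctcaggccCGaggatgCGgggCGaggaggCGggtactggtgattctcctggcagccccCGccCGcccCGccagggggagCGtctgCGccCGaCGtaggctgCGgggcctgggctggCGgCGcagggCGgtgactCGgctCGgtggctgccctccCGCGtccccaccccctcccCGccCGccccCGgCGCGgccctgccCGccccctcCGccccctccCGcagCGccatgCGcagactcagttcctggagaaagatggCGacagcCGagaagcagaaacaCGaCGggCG

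Both windows are rich in CG. The PRKAA2 window holds 48 CG dinucleotides, a number reached by 1.98% of 35114 RefSeq promoters of the same length. The PRKAA1 window holds 36, reached by 12.7%, and the median promoter holds 14. The GC box GGGCGG, searched on both strands, occurs 5 times in PRKAA2 and 8 times in PRKAA1, and 45% of promoters hold it at least once. Neither window holds, on either strand, the TATA box TATAAA (present in 11.5% of promoters) or the box CCAAT (34.6%). Nor do they hold the cyclic AMP response element TGACGTCA (1.85%) or the E-box CACGTG (7.26%). These matches describe letters only, and DNA methylation was not measured.

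**Figure D1:**
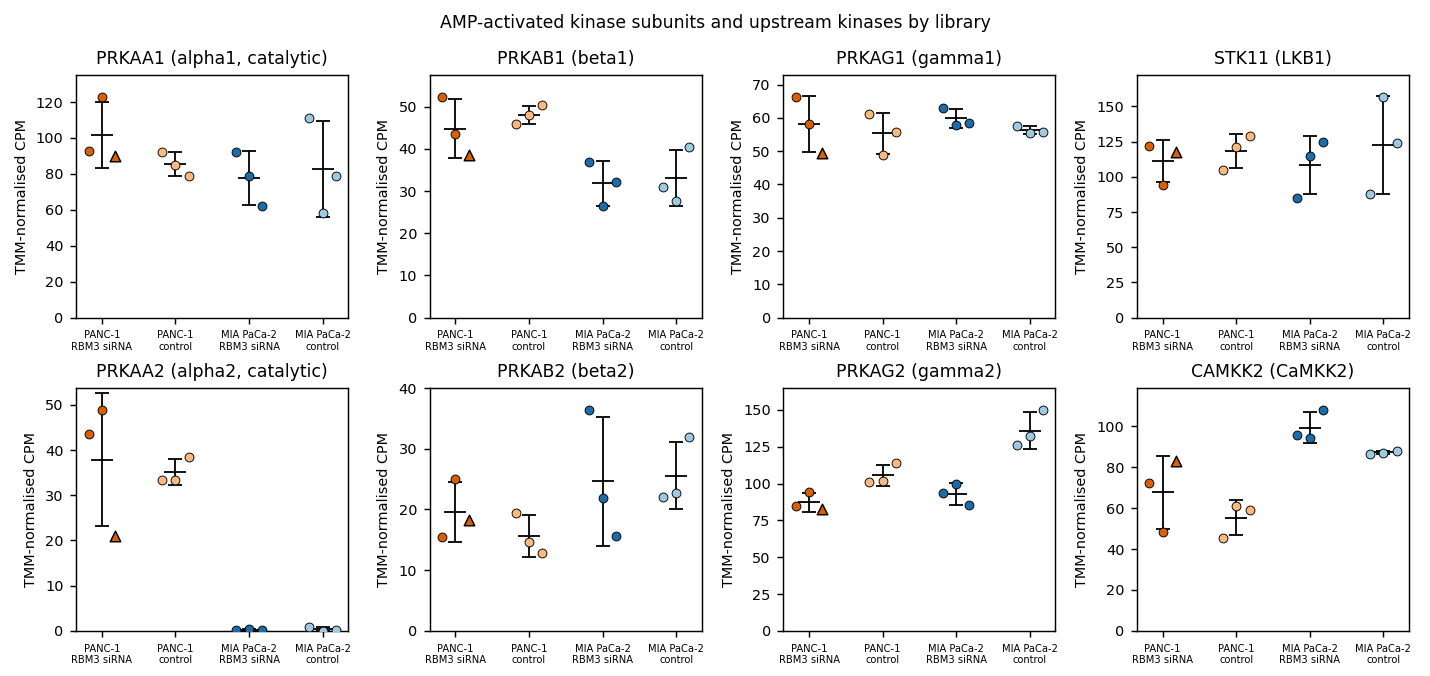
TMM-normalised CPM (vertical axes, from 0) of the 8 genes, 1 panel a gene. Points are the 12 libraries by line and siRNA, the triangle is PANC-1 RBM3 siRNA replicate 3, and lines with caps are the group mean ± SD (n = 3); PRKAA2 lies between 21.1 and 48.9 CPM in PANC-1 and at 0.809 CPM or less in MIA PaCa-2, and PRKAG2 lies lower with RBM3 siRNA than with control siRNA in both lines.

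The beta subunits hold the trimer together and carry a glycogen-binding module. PRKAB1 stood at 52.4, 43.5 and 38.6 CPM in PANC-1 with RBM3 siRNA, against 36.9, 26.4 and 32.2 CPM in MIA PaCa-2 under RBM3 siRNA. Under control siRNA it stood at 46.0, 48.1 and 50.3 CPM in PANC-1, against 31.0, 27.7 and 40.5 CPM in MIA PaCa-2. Every PANC-1 library lay above every MIA PaCa-2 library treated with the same siRNA, as for 31.4% of tested genes under control siRNA and 28.5% under RBM3 siRNA. The control difference of 0.54 on the log2 scale passed the test (SE 0.20, adjusted p = 0.0345, edgeR quasi-likelihood test with Benjamini-Hochberg adjustment over all tested genes) and the difference of 0.49 under RBM3 siRNA did not (SE 0.19, adjusted p = 0.0562, edgeR). Both calls turned on single libraries: leaving out each in turn, edgeR adjusted p-values ran from 0.0179 to 0.113 under control siRNA and from 0.0349, without PANC-1 RBM3 siRNA replicate 3, to 0.204 under RBM3 siRNA.

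PRKAB2, the other beta subunit, did not pass the test between the lines under either siRNA. It stood at 15.5, 25.1 and 18.2 CPM in PANC-1 with RBM3 siRNA, against 36.4, 21.9 and 15.7 CPM in MIA PaCa-2 under RBM3 siRNA, and these groups overlapped. Under control siRNA the values were 19.4, 14.6 and 12.8 CPM in PANC-1, against 22.0, 22.7 and 31.9 CPM in MIA PaCa-2, without overlap, as for 30.1% of tested genes in this direction. The control difference of -0.71 on the log2 scale did not pass the test (SE 0.31, adjusted p = 0.0764, edgeR), though it did in a fit of those 6 libraries alone (adjusted p = 0.032, edgeR) and without PANC-1 control replicate 1 and RBM3 siRNA replicate 2 together (-0.89, adjusted p = 0.0456, edgeR). Under RBM3 siRNA the difference was -0.33 (SE 0.31, 95% interval -1.05 to 0.39).

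Among the gamma subunits, which bind AMP, ADP and ATP, PRKAG1 did not pass the test in any comparison. Its 12 values lay between 48.9 and 66.4 CPM. They were 66.4, 58.3 and 49.6 CPM in PANC-1 with RBM3 siRNA and 61.3, 48.9 and 55.8 CPM in PANC-1 with control siRNA, which overlap. In MIA PaCa-2 they were 63.1, 58.0 and 58.5 CPM with RBM3 siRNA, all just above the 57.7, 55.6 and 55.7 CPM with control siRNA, a difference of 0.09 on the log2 scale (SE 0.15, 95% interval -0.26 to 0.44). Line differences were -0.03 under control siRNA (95% interval -0.37 to 0.32) and -0.04 under RBM3 siRNA (95% interval -0.39 to 0.31), signs that changed with the scaling or library used. An antisense gene, DDN-AS1, overlaps 12.7% of PRKAG1 exon sequence in the annotation, and because the strand setting is not given, reads of the pair cannot be told apart.

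PRKAG2, the gamma2 subunit, whose mutations cause an inherited heart disease with glycogen storage, was the gene that put this set forward. It stood at 93.4, 100 and 85.3 CPM in MIA PaCa-2 under RBM3 siRNA, against 126, 132 and 150 CPM in MIA PaCa-2 under control siRNA. In PANC-1 it stood at 84.7, 94.6 and 82.7 CPM with RBM3 siRNA, against 101, 102 and 114 CPM with control siRNA. All RBM3 siRNA libraries lay below all control libraries of their line, a pattern shown by 29 genes, 0.162% of those tested (3.63% for MIA PaCa-2 alone, 2.77% for PANC-1 alone). PRKAG2 was chosen for this, so nothing is read from that share.

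On the log2 scale PRKAG2 differed by -0.55 in MIA PaCa-2 (SE 0.14) and by -0.27 in PANC-1 (SE 0.14), RBM3 siRNA minus control siRNA. The response in PANC-1 minus that in MIA PaCa-2 was 0.27 (SE 0.19). Leaving out each library in turn kept the values between -0.60 and -0.48 in MIA PaCa-2 and between -0.35 and -0.21 in PANC-1. The means ran in the order MIA PaCa-2 control (136 ± 12.3 CPM), PANC-1 control (105 ± 7.06 CPM), MIA PaCa-2 RBM3 siRNA (92.9 ± 7.36 CPM) and PANC-1 RBM3 siRNA (87.3 ± 6.37 CPM; SD, n = 3 each), and only the last pair overlapped.

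Between the lines, the PANC-1 minus MIA PaCa-2 difference of PRKAG2 was -0.36 on the log2 scale under control siRNA (SE 0.14). Under RBM3 siRNA it was -0.09 (SE 0.14). The same libraries entered the choice of the gene, so these values too are a description. PRKAG2 is annotated with several start sites spread over its locus, and the counts sum over all of them, so long and short isoforms are not separated.

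**Figure D2:**
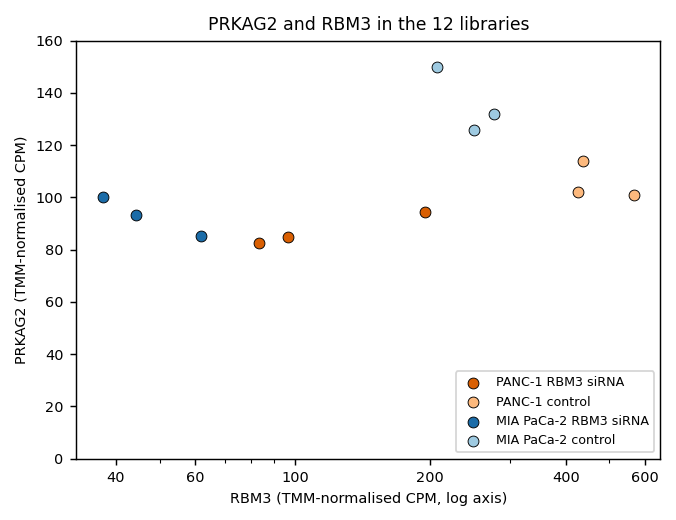
PRKAG2 (vertical axis) against RBM3 (horizontal axis, log scale), both in TMM-normalised CPM, 1 point a library, coloured by line and siRNA. Libraries with RBM3 siRNA lie to the left and below the control libraries of their line; the highest PRKAG2 value is 150 CPM in a MIA PaCa-2 control library.

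Genes whose pattern was most like that of PRKAG2 were ranked by Pearson's r of log2 CPM over the 12 libraries after subtracting each line's mean, among 10144 genes of at least 5 CPM in both lines. The first 5 were PNMA2 (r = 0.936), MORF4L1 (0.933), HIF1AN (0.928), RNF14 (0.924) and MORF4L1P1 (0.908), and RBM3 itself had 0.851. Without PANC-1 RBM3 siRNA replicate 3 the values for the 5 lay between 0.914 and 0.936. MORF4L1, a chromodomain protein of histone acetyltransferase complexes, averaged 146 CPM with RBM3 siRNA and 279 CPM with control siRNA in MIA PaCa-2, and 267 CPM with RBM3 siRNA and 429 CPM with control siRNA in PANC-1. MORF4L1P1 is its pseudogene, and reads of the pair could be split either way. HIF1AN, the asparagine hydroxylase that restrains HIF, averaged 55.7 CPM with RBM3 siRNA and 105 CPM with control siRNA in MIA PaCa-2, and 120 CPM with RBM3 siRNA and 169 CPM with control siRNA in PANC-1. PRKAG2 was chosen for being lower with RBM3 siRNA. A high r with RBM3, or with other genes lower under that siRNA, therefore follows in part from the choice. The libraries share siRNA groups, so these values describe a pattern and are given with no p.

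Of the upstream kinases, CAMKK2 was lower in PANC-1 and STK11 did not pass the test in any comparison. CAMKK2, the calcium-dependent kinase, stood at 72.1, 48.2 and 82.8 CPM in PANC-1 with RBM3 siRNA, against 95.8, 94.4 and 108 CPM in MIA PaCa-2 under RBM3 siRNA. Under control siRNA it stood at 45.4, 61.2 and 59.2 CPM in PANC-1, against 86.4, 87.1 and 88.1 CPM in MIA PaCa-2. No PANC-1 library reached the lowest MIA PaCa-2 library of the same siRNA, as for 30.1% of tested genes under control siRNA and 25.9% under RBM3 siRNA. CAMKK2 was lower in PANC-1, with log2 differences of -0.66 under control siRNA (SE 0.19, adjusted p = 0.0137, edgeR) and -0.56 under RBM3 siRNA (SE 0.19, adjusted p = 0.0353, edgeR).

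The lowest CAMKK2 values, 45.4 and 48.2 CPM, came from the pair of PANC-1 libraries that lie together, control replicate 1 and RBM3 siRNA replicate 2, and the highest PANC-1 value, 82.8 CPM, from the library with MIA PaCa-2 transcripts. Without PANC-1 control replicate 1 the control difference was -0.52 (adjusted p = 0.0624, edgeR). Without that pair together the differences were -0.53 under control siRNA (adjusted p = 0.0128, edgeR) and -0.35 under RBM3 siRNA (adjusted p = 0.0839, edgeR). Without PANC-1 RBM3 siRNA replicate 3 the difference under RBM3 siRNA was -0.73 (adjusted p = 0.00837, edgeR), and over the 12 fits that left out 1 library each it was called in 5.

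STK11, the kinase LKB1 and a tumour suppressor, was expressed in every library. It stood at 122, 94.5 and 118 CPM in PANC-1 with RBM3 siRNA, and PANC-1 control libraries had 105, 121 and 129 CPM. In MIA PaCa-2 it stood at 85.1, 115 and 125 CPM with RBM3 siRNA and at 87.6, 157 and 124 CPM with control siRNA. All groups overlapped, and the line differences were -0.06 under control siRNA (95% interval -0.56 to 0.44) and 0.04 under RBM3 siRNA (95% interval -0.46 to 0.54) on the log2 scale.

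Counts of calls between the lines leave out PRKAG2, whose libraries entered the choice of the set, and PRKAA2, which passed the filter through PANC-1. Of the other 6 genes, 2 differed under control siRNA by the edgeR test, PRKAB1 higher and CAMKK2 lower in PANC-1, against 50.8% of all tested genes (26% higher and 24.8% lower). Under RBM3 siRNA 1 of the 6 did, CAMKK2, lower in PANC-1, against 43.6% of all tested genes (24.2% higher and 19.3% lower). Neither count exceeds the share of all genes, and neither is a result about the set. Under control siRNA the count was 1 without MIA PaCa-2 control replicate 1 or 2 or PANC-1 control replicate 2 or 4, each left out alone, and 0 without PANC-1 control replicate 1.

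**Figure D3:**
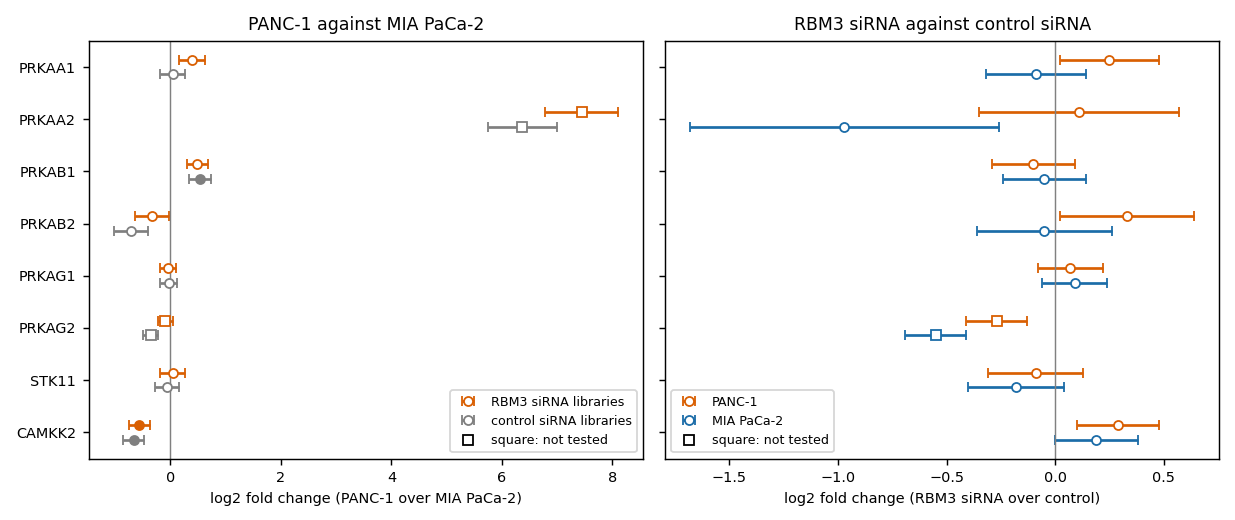
Log2 fold changes of the 8 genes with their approximate SE, for PANC-1 minus MIA PaCa-2 under either siRNA and for RBM3 siRNA minus control siRNA in either line; filled circles passed edgeR's adjusted p of 0.05, open circles did not, and squares mark differences that were not tested. PRKAA2 stands at 7.44 and 6.37 between the lines, and the siRNA differences of the other 7 genes, PRKAG2 left out, are open circles in each line.

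RBM3 siRNA gave no call among the 7 genes other than PRKAG2 in either line, by edgeR or by DESeq2. Over all genes it gave 2 calls in MIA PaCa-2 (0.0112% of those tested) and 0 in PANC-1 (0%). RBM3, the siRNA target, was called in MIA PaCa-2 (log2 difference -2.35, SE 0.31, adjusted p = 0.0426, edgeR). In PANC-1 edgeR did not call RBM3 (-1.93, SE 0.30, adjusted p = 0.516), though DESeq2 did (adjusted p = 1.75e-05). A missing call here therefore does not show that a gene was unchanged. At an unadjusted p of 0.05, 2.94% of genes passed for MIA PaCa-2 and 4.12% for PANC-1, and DESeq2 called 0.118% and 0.0168%. Log2 differences of the 7 genes in MIA PaCa-2 lay between -0.97 for PRKAA2 (SE 0.71, from 17 reads with RBM3 siRNA and 37 with control siRNA) and 0.19 for CAMKK2 (SE 0.19). In PANC-1 they lay between -0.10 for PRKAB1 (SE 0.19) and 0.33 for PRKAB2 (SE 0.31).

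CAMKK2 was higher in all 3 MIA PaCa-2 libraries with RBM3 siRNA than in all 3 with control siRNA, as was PRKAG1, a pattern seen in 4.41% of tested genes. None of the 8 did so in PANC-1, where 3.75% of tested genes did. The 95% intervals were -0.26 to 0.64 in MIA PaCa-2 and -0.16 to 0.74 in PANC-1 for CAMKK2, and -0.63 to 0.44 in MIA PaCa-2 and -0.28 to 0.79 in PANC-1 for PRKAA1. The responses of the lines were compared directly, and the edgeR test of that difference called 0 of the 7 genes other than PRKAG2 and 0 of all genes (0%), with 2.98% of genes at an unadjusted p of 0.05 and 0.0168% called by DESeq2.

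Levels of different genes were compared as CPM per kb of annotated exon, which describes the subunit transcripts of each line. Subunit protein was not measured. Alpha transcripts summed to 19.5 ± 4.05 CPM per kb in PANC-1 with RBM3 siRNA, 16.7 ± 0.777 in PANC-1 with control siRNA, 11.8 ± 2.29 in MIA PaCa-2 under RBM3 siRNA and 12.6 ± 4.11 in MIA PaCa-2 under control siRNA (SD, n = 3 each). Beta transcripts were the scarcest by group mean, at 10.8 ± 1.11, 10.6 ± 0.289, 9.62 ± 2.58 and 9.96 ± 2.04 CPM per kb in the same groups. Gamma transcripts were the most abundant, at 26.8 ± 2.38, 28.9 ± 1.81, 28.1 ± 1.27 and 33.6 ± 1.65 CPM per kb. In each of the 4 group means gamma exceeded alpha and alpha exceeded beta. Alpha and beta overlapped among the MIA PaCa-2 libraries, and in control replicate 4 beta (12.3 CPM per kb) exceeded alpha (12 CPM per kb).

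The share of the second paralog within each subunit did not overlap between the lines for alpha under either siRNA and for beta and gamma under control siRNA, and it overlapped for beta and gamma under RBM3 siRNA. PRKAA2 made up 20.3% ± 5.48 of alpha transcripts per kb in PANC-1 with RBM3 siRNA and 22.5% ± 2.71 with control siRNA, and 0.179% ± 0.0968 in MIA PaCa-2 under RBM3 siRNA and 0.233% ± 0.239 with control siRNA. PRKAB2 made up 33.4% ± 7.39 of beta transcripts in PANC-1 with RBM3 siRNA and 26.9% ± 5.16 with control siRNA, and 45.8% ± 9.01 and 46.9% ± 1.86 in the same MIA PaCa-2 groups. PRKAG2 made up 48.4% ± 3.65 of gamma transcripts in PANC-1 with RBM3 siRNA and 54.2% ± 3.25 with control siRNA, and 49.0% ± 2.32 in MIA PaCa-2 under RBM3 siRNA and 59.9% ± 2.47 with control siRNA (SD, n = 3 throughout). The control libraries held 50.5% to 56.4% in PANC-1 and 57.6% to 62.5% in MIA PaCa-2, a share that rests on the gene used for the choice. Exon lengths come from an annotation of another build and count every annotated exon, so the shares depend on which isoforms the cells use. The remaining gamma gene, PRKAG3, a muscle subunit, had 0 reads in all 12 libraries.

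**Figure D4:**
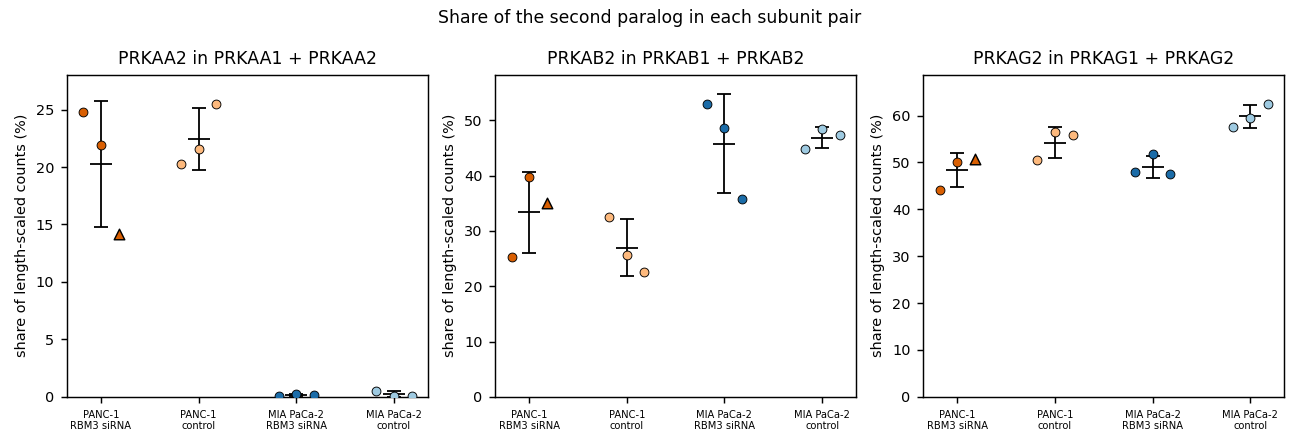
Share of the second paralog (percent of the subunit's transcripts, CPM per kb of exon; vertical axes from 0) for alpha, beta and gamma, 1 point a library, by line and siRNA, with the mean ± SD (n = 3) and a triangle for PANC-1 RBM3 siRNA replicate 3. PRKAA2 holds between 14.2% and 25.5% of alpha transcripts in PANC-1 libraries and at most 0.509% in MIA PaCa-2 libraries.

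PRKAA1 and STK11 varied in opposite directions across the libraries of each line, a relation noticed after their values were seen, among 28 pairs of the 8 genes. Among the PANC-1 libraries, that with the most PRKAA1 (123 CPM) had the least STK11 (94.5 CPM), RBM3 siRNA replicate 2. In MIA PaCa-2 the library with the least PRKAA1 (58.1 CPM) had the most STK11 (157 CPM), control replicate 2. MIA PaCa-2 control replicate 1 had the most PRKAA1 of that line, 111 CPM, with 87.6 CPM of STK11, the second lowest. Pearson's r of log2 CPM after subtracting each line's mean was -0.90 over the 12 libraries, -0.91 within MIA PaCa-2 and -0.90 within PANC-1 (6 libraries each). Over the 12 libraries Spearman's rho was -0.81, and Pearson's r was -0.82 without the 2 libraries farthest from the median of PRKAA1, MIA PaCa-2 control replicates 1 and 2. The relation is given as a description with no p.

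Other genes of the pathway were read from lists of partners, relatives, substrates and regulators. No gene of any list was called with RBM3 siRNA in either line, and the list medians lay between -0.03 and 0.14 on the log2 scale in MIA PaCa-2 and between -0.04 and 0.20 for PANC-1, against -0.00 and 0.03 for all genes. Between the lines the AMPK-related kinases, which LKB1 also phosphorylates for the most part, counted 4 higher and 1 lower of 12 tested in PANC-1 under control siRNA and 5 higher and 2 lower under RBM3 siRNA. That is 41.7% called under control siRNA and 58.3% under RBM3 siRNA, against 50.8% and 43.6% of all tested genes. Their median log2 difference was 0.32 under control siRNA and 0.50 under RBM3 siRNA, against 0.00 and -0.00 for all genes. Without PANC-1 control replicate 1 and RBM3 siRNA replicate 2 together the counts were 3 higher and 3 lower under control siRNA and 3 higher and 2 lower under RBM3 siRNA. NUAK1, linked to cell adhesion and stress survival, averaged 66.6 ± 42.1 CPM in PANC-1 and 12.6 ± 1.96 CPM in MIA PaCa-2 under RBM3 siRNA, and 72.8 ± 10.2 CPM in PANC-1 and 11.5 ± 2.10 CPM in MIA PaCa-2 under control siRNA (SD, n = 3 each). It was higher in PANC-1 by 2.67 under control siRNA (SE 0.40, adjusted p = 0.000218, edgeR). Its PANC-1 value was 26.0 CPM in RBM3 siRNA replicate 3, against 63.7 and 110 CPM in replicates 1 and 2, and the difference under RBM3 siRNA was 2.40 with it (SE 0.40) and 2.78 without it (adjusted p = 2.55e-06, edgeR). MELK, a kinase of dividing cells, was higher and MARK4, a microtubule affinity-regulating kinase, lower in PANC-1 under control siRNA, with log2 differences of 0.92 and -1.58 (adjusted p = 0.00154 and 0.00151, edgeR).

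AMPK substrates counted 5 higher and 2 lower of 14 tested in PANC-1 under control siRNA and 5 higher and 5 lower under RBM3 siRNA, with medians of 0.36 and 0.37, against 0.00 and -0.00 for all genes. The called share was 50% under control siRNA and 71.4% under RBM3 siRNA, against 50.8% and 43.6% of all tested genes. Without that pair of libraries the counts were 4 higher and 2 lower and 3 higher and 3 lower, and without MIA PaCa-2 control replicate 1 they were 3 higher and 3 lower under control siRNA. The lower genes under control siRNA were GYS1, the glycogen synthase of most tissues outside the liver, and PFKFB3, which makes the activator of phosphofructokinase. GYS1 differed by -2.36 under control siRNA (SE 0.38, adjusted p = 0.000321, edgeR) and by -1.67 under RBM3 siRNA, where replicate 3 of PANC-1 stood at 84.1 CPM against 33.6 and 26.3 CPM; without it the difference was -2.35 (adjusted p = 7.69e-06, edgeR). PFKFB3 differed by -1.55 under control siRNA (SE 0.23, adjusted p = 0.000191, edgeR). PFKFB2, a relative of PFKFB3 best known from heart, averaged 47.0 ± 15.6 CPM in PANC-1 and 20.4 ± 5.09 CPM in MIA PaCa-2 under RBM3 siRNA, and 43.5 ± 4.51 CPM in PANC-1 and 21.1 ± 5.2 CPM in MIA PaCa-2 under control siRNA (SD, n = 3 each). It was higher in PANC-1 by 1.05 under control siRNA (SE 0.27, adjusted p = 0.00695, edgeR). Its PANC-1 libraries all lay above MIA PaCa-2, as for 31.4% of tested genes under control siRNA and 28.5% under RBM3 siRNA.

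Of 6 tested partners and other upstream kinases, 1 was lower in PANC-1 under either siRNA and 0 higher (16.7%, against 50.8% of all tested genes under control siRNA and 43.6% under RBM3 siRNA). It was STRADB, the pseudokinase partner of LKB1, at -0.88 under control siRNA (SE 0.26, adjusted p = 0.0133, edgeR). Like CAMKK2 it was lowest in PANC-1 control replicate 1 (25.5 CPM) and RBM3 siRNA replicate 2 (26.8 CPM), and without PANC-1 control replicate 1 it was at -0.66 (adjusted p = 0.0556, edgeR). Of 7 energy-stress regulators that passed the filter, SESN3 did so through PANC-1 alone (0.327 CPM or less in MIA PaCa-2). Its line difference is therefore a description with no test. Of the others, FNIP2 was called higher and PPM1F lower in PANC-1 under either siRNA. Of all tested genes, the same 50.8% and 43.6% were called. Without MIA PaCa-2 control replicate 1, 1 regulator was higher under control siRNA, SESN3 counted. Without the pair 0 were lower under RBM3 siRNA. FNIP2, a folliculin partner that binds AMPK, had a log2 difference of 1.75 (SE 0.36, adjusted p = 0.00163, edgeR) and PPM1F, a phosphatase that can act on AMPK, one of -1.17 (SE 0.23, adjusted p = 0.0013, edgeR) under control siRNA. STRADA, FLCN and FNIP1 were listed at 0 or 1 read over all 12 libraries, and no level is read from these rows. Each shares exon sequence with another gene on its strand in the GRCh38 annotation (18.1%, 11.9% and 3.54%). The part of this overlap in the low counts was not tested.

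With RBM3 siRNA, the smallest p-values of the lists belonged to genes that did not pass adjustment. BRSK1, a neuronal relative of AMPK, stood at 7.20 to 9.11 CPM with RBM3 siRNA and at 9.02 to 13.5 CPM with control siRNA in MIA PaCa-2 (log2 difference -0.52, SE 0.22). In PANC-1 it stood at 12.3 to 12.9 CPM with RBM3 siRNA, below all control libraries at 15.2 to 17.2 CPM (-0.34, SE 0.21). Of all tested genes, 2.77% were separated in this direction in PANC-1. GYS1 differed by 0.64 (SE 0.36) in PANC-1, where only replicate 3 with RBM3 siRNA lay above the control libraries, at 26.7 to 39.0 CPM. MFF, a receptor for mitochondrial fission, differed by 0.25 (SE 0.13) and SESN2, a stress-induced regulator of mTORC1, by -0.65 (SE 0.37) in MIA PaCa-2. MAP3K7, the kinase TAK1, differed by 0.21 (SE 0.17) for MIA PaCa-2 and by 0.19 (SE 0.17) for PANC-1, and SESN3 by 0.89 (SE 0.53) in PANC-1 at 0.804 to 1.27 CPM with RBM3 siRNA and 0.414 to 0.832 CPM with control siRNA.

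**Figure D5:**
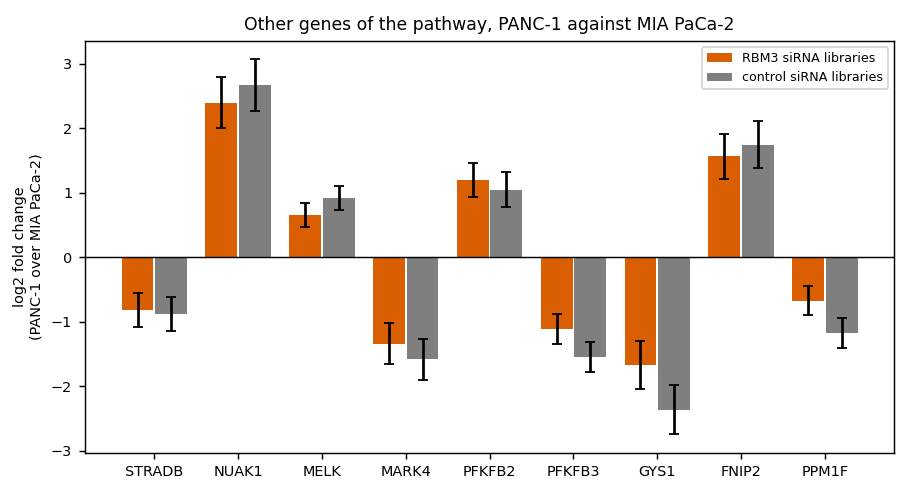
Log2 fold changes, PANC-1 over MIA PaCa-2, of the 9 pathway genes named for the line comparison (bars from 0, error bars the approximate SE), among RBM3 siRNA libraries and among control siRNA libraries. Under control siRNA they run from -2.36 for GYS1 to 2.67 for NUAK1, and each gene has the same sign under both siRNAs.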

How the data were processed

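RNA-seq read counts per Ensembl gene were deposited by the authors as 1 table of raw counts for all 12 libraries, without normalisation. Libraries were made with TruSeq v2 kits and read as pairs of 75 bp, per the labels' protocols. STAR, Picard, featureCounts and Subread and the build hg19/GRCh37 are named in the submitters' processing notes. The sources used here give neither the annotation release nor the strand setting nor the handling of duplicates. Strand bears on antisense overlaps and duplicates on abundant genes. A gene name table matched 52181 of 63677 identifiers and gave a symbol for 39699, so symbols are those of that table.

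Counts were tested with edgeR 4.0.16 in R 4.3.3 (two-sided quasi-likelihood F-test, TMM scaling, filterByExpr with minimum count 10, Benjamini-Hochberg at 0.05 over 17862 genes). A single model of the 4 groups used all 12 libraries and left 8 residual degrees of freedom. The SE is approximate, taken as the size of the log2 fold change over the square root of its F. DESeq2 1.42.0 was an alternative. Exon lengths and overlaps came from an annotation of GRCh38 and promoters from RefSeq, so no coordinates of the counted genes are given. The scripts were checked on simulated data.

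The 8 genes and the lists were chosen with earlier results of these data known, and the markers of the lines came from those results. Genes named were the 8, PRKAG3 and RBM3; per list, up to 3 called genes with the smallest p between the lines under control siRNA at 2 CPM or more, and the smallest p with RBM3 siRNA in each line; and the 5 genes most like PRKAG2 at 5 CPM or more. STRADA, FLCN and FNIP1 were named after their values were seen. Counts of calls leave out PRKAG2 and, between the lines, PRKAA2, a restriction set after the data were seen. SESN3 is left out between the lines too, except where it is said to be counted. ACACA had no matching identifier. A gene of the AMPK substrate list is not reported here and is left out of that list's counts and medians. Alternatives were other size factors, DESeq2, other filters, other sample sets, a replicate block, each library left out, a threshold of 0.1 and, chosen after seeing the data, a pair of libraries left out and genes with a symbol only. Same-numbered libraries did not deviate together (correlations from -0.40 to 0.10), so numbers were not treated as pairs. Replicates differed by more than sampling noise (chi-square per degree of freedom from 11.7 to 184).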

Additional observations from a re-analysis of the deposited data

How the results depend on the processing

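Depth limits PRKAA2 in MIA PaCa-2, where 5 of 6 libraries held 11 reads or fewer. Among the 7 genes other than PRKAG2, the count called with RBM3 siRNA in either line and for the difference between responses was 0 under every alternative run, DESeq2 included. The main edgeR test left the siRNA target RBM3 uncalled in PANC-1 too. Between the lines, PRKAG2 and PRKAA2 left out, leaving out each library in turn gave 0 to 3 calls of 6 under control siRNA (2 with all libraries) and 0 to 2 under RBM3 siRNA (1 with all). Without a filter on low counts the calls were 1 and 0. Under RBM3 siRNA a fit of the 2 groups alone, a replicate block and leaving out PANC-1 control replicate 1 and RBM3 siRNA replicate 2 together each gave 0, and other size factors, DESeq2, the 1 CPM filter and a threshold of 0.1 each gave 2. Whole-table calls in MIA PaCa-2 (2) were 0 with other size factors, with the 1 CPM filter and with the replicate block, 21 by DESeq2 and 0 to 3 with 1 library left out. In PANC-1 (0) they were 3 by DESeq2, 230 without a filter and 0 to 1 with 1 library left out, and for the difference (0) 3 by DESeq2 and 107 without a filter. The cause of these shifts was not tested.

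The replicate block turned the sign of uncalled differences. For siRNA differences, and between the lines under RBM3 siRNA, it compares only libraries whose replicate number occurs in both groups. Libraries with an unmatched number did not add to those values. With RBM3 siRNA the block gave 0.08 for PRKAA1, 0.09 for PRKAB1 and 0.34 for PRKAB2 in MIA PaCa-2 and 0.02 for PRKAB1 in PANC-1. For the difference between responses it gave -0.11 for PRKAB2 and 0.09 for PRKAG1, and 0.05 for PRKAG1 between the lines under RBM3 siRNA. It made a call of PRKAB2 (adjusted p = 0.0382, edgeR) between the lines under control siRNA. PRKAG1 also turned to 0.01 for the difference without a filter and to 0.02 between the lines under control siRNA with DESeq2 and its size factors. Leaving out the pair gave -0.15 for PRKAA2 in PANC-1, 0.06 for PRKAG1 in the difference, and -0.01 for PRKAA1 and 0.03 for STK11 between the lines under control siRNA. On unscaled counts the ratio of PRKAG2 to PRKAG1 rose above its per-kb value in all 4 groups (1.52 to 2.42).

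With 1 library left out, uncalled signs turned as follows. With RBM3 siRNA in MIA PaCa-2, values ran from -0.31 to 0.20 for PRKAA1, -1.58 to 1.12 for PRKAA2 (1.12 without control replicate 1), -0.19 to 0.11 for PRKAB1, -0.45 to 0.19 for PRKAB2 and -0.36 to 0.03 for STK11. In PANC-1 they ran from -0.14 to 0.38 for PRKAA2, -0.03 to 0.15 for PRKAG1 and -0.17 to 0.01 for STK11. For the difference they ran from -1.02 to 1.69 for PRKAA2, -0.22 to 0.08 for PRKAB1, -0.11 to 0.07 for PRKAG1, -0.11 to 0.27 for STK11 and -0.08 to 0.29 for CAMKK2. Between the lines under control siRNA they ran from -0.16 to 0.34 for PRKAA1, -0.10 to 0.05 for PRKAG1 and -0.23 to 0.17 for STK11, and under RBM3 siRNA from -0.55 to 0.07 for PRKAB2, -0.13 to 0.05 for PRKAG1 and -0.10 to 0.17 for STK11.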
